A study of Arabidopsis thaliana with 8 samples.

Results

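NAC transcription factors are a large plant-specific family named after NAM, ATAF and CUC, its founding members. They share an N-terminal DNA-binding domain and differ in their C-terminal activation or membrane-anchoring parts. In roots and leaves, members are known to act in senescence, drought and abscisic acid responses, secondary wall formation, root cap development and organ boundaries. URI (bHLH121), the protein that was precipitated, belongs to the basic helix-loop-helix class of transcription factors and acts in the response of Arabidopsis thaliana to iron (Fe) shortage.

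The NAC genes were taken as the protein-coding genes of the RefSeq table (TAIR10.1) whose symbol is NAC or ANAC plus a number, together with ATAF1 and ATAF2. This gave 83 of 27444 protein-coding genes. A further 17 genes that carry such a name only as a synonym, such as NAP, RD26, the CUC genes and VND7, brought the family to 100 and are described separately. A gene was counted as having a URI peak when it lay within 1500 bp of one on either side. Peaks came from chromatin immunoprecipitation and sequencing (ChIP-seq) of roots from a complemented uri mutant line, exposed for 72 h either to Fe sufficiency or to Fe deficiency. Each Fe condition had 3 URI libraries and 1 IgG control. No source used here gives the promoter or tag of the complementing transgene, the number of lines or whether the libraries came from separate plantings, so p-values may measure technical spread. ChIP-seq peaks hold no expression values, so the tissue was not checked against marker genes.

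For each of 2366 peaks, the authors' deposited table gives 1 concentration per Fe condition, read here as the log2 of normalised reads, and no value per library. Reads below are 2 to the power of that concentration. Changes are Fe deficiency minus Fe sufficiency on the log2 scale, so a negative value is lower URI signal under deficiency. The error of a change is given as the standard error (SE) implied by its deposited p-value. This takes the change as normally distributed and the deposited test as centred on a change of 0. For changes under 0.2 it is the median SE of peaks of like concentration. The deposited test was not exactly centred there, since -0.01 at NAC004 had a deposited p of 0.869 and 0.03 at NAC055 one of 0.962. SEs and intervals are therefore approximate. The depth of each library is unknown.

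The first question was how many NAC genes had URI nearby. A peak lay within 1500 bp of 19 of the 83 NAC genes (22.9%), whereas 3246 of all 27444 protein-coding genes (11.8%) had one. With the genes named by synonym the count was 23 of 100 (23.0%). Both shares were above that of all genes at every window from 0 to 5000 bp, as the plot of shares by window shows. These shares are a description, since the family was chosen with earlier results of these data known and no test of the list was made. NAC genes also had wide intergenic flanks. The median of the longer flank was 2722 bp for the 19 genes with a peak and 2550 bp for the 64 without, against 1937 bp for other protein-coding genes with a peak and 1366 bp for those without. The part of flanking space in the share of NAC genes with a peak was not tested.

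**Figure D1:**
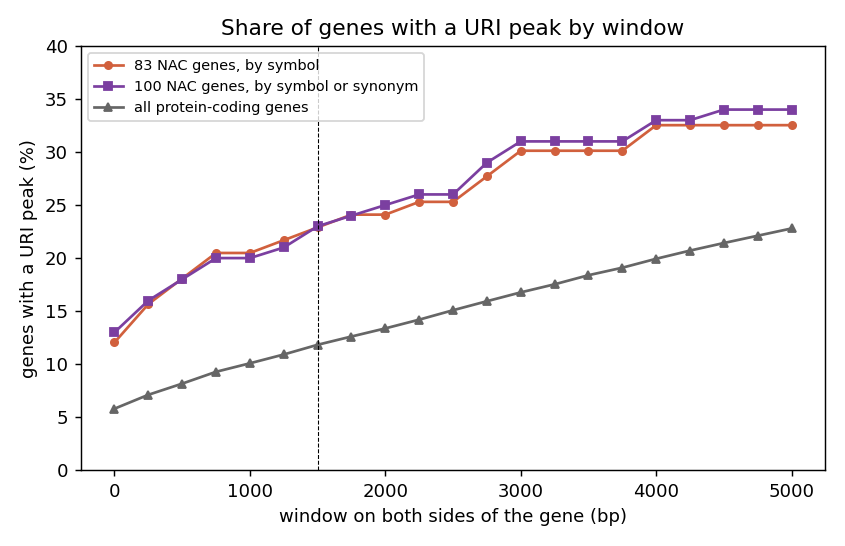
Share of genes with a URI peak (%) against the window on both sides of the gene (bp), for 83 NAC genes by symbol, 100 NAC genes by symbol or synonym and all protein-coding genes; the dashed line marks 1500 bp. At 1500 bp the shares are 22.9%, 23.0% and 11.8%.

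The 19 genes were served by 21 peaks, because 3 peaks were each shared by 2 NAC neighbours and 5 of the 19 genes (26.3%) had more than 1 peak, against 11.7% of all genes with a peak. That difference was not tested. Shared peaks lay between NAC004 and NAC005, between NAC048 and NAC049 and across NAC052 and NAC053, which lie side by side on the chromosome. Members that share a peak are not independent cases. By chromosome, 8 of 21 NAC genes on chromosome 3 had a peak, 6 of 25 on chromosome 5 and 3 of 25 on chromosome 1. Chromosome 2 had 1 of 4 and chromosome 4 had 1 of 8. All 3 shared peaks lay on chromosomes 1 and 3, so the counts there include genes that share a peak. The share of all protein-coding genes with a peak was not counted by chromosome, so these counts have no background.

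NAC047 (AT3G04070), also known as SPEEDY HYPONASTIC GROWTH for its role in leaf movement under waterlogging, had by far the most URI reads of the family. In the authors' deposited table its peak (chromosome 3, 1063267 to 1066699, TAIR10) held 171 reads with sufficient Fe and 131 under deficiency. It ranked 6 of the 2366 peaks by mean concentration in the authors' deposited table. The peak was also wide, at 3432 bp (rank 8), and per kb of peak its 44.0 reads ranked 24. It began 33 bp from the NAC047 gene and filled most of the 4323 bp between NAC047 and APY1, an apyrase gene, which also lay within 1500 bp of it. The log2 change in the authors' deposited table was -0.39 (SE 0.34, p = 0.252, FDR 0.446), with an approximate 95% interval of -1.06 to 0.28. The interval included 0 as well as a 2.08-fold lower signal under deficiency.

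NAC083 (AT5G13180), known as VNI2, a repressor of vessel formation that also acts in leaf ageing, had the peak with the second most reads among the 83 genes. In the authors' deposited table that peak (chromosome 5, 4192863 to 4195205) held 58.1 reads with sufficient Fe and 36.3 under deficiency. Its log2 change in the authors' deposited table was -0.69 (SE 0.30, p = 0.0203, FDR 0.229). It lay 1051 bp from the gene, inside an intergenic stretch of 12901 bp, with no other protein-coding gene within 1500 bp. A second NAC083 peak (chromosome 5, 4195438 to 4196708) overlapped the gene, with 25.1 and 21.6 reads in the authors' deposited table and a log2 change of -0.22 (SE 0.34, p = 0.522, FDR 0.659). Neither NAC083 peak passed the FDR threshold of 0.05.

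**Figure D2:**
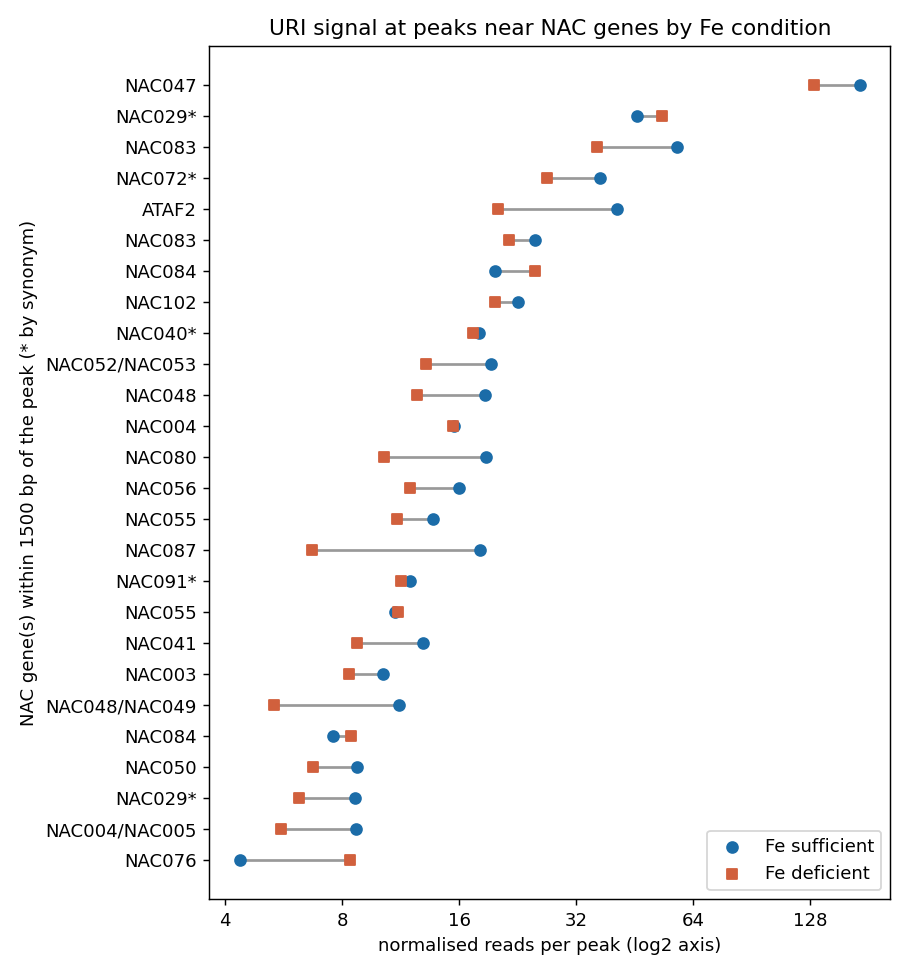
Normalised reads per peak (log2 axis) with sufficient Fe (circles) and deficient Fe (squares) for the 26 peaks near NAC genes, 1 line per peak in order of mean concentration; the deposited means carry no error bars because no value per library is given, and NAC029, NAC072, NAC040 and NAC091 are the synonyms of NAP, RD26, NTL8 and TIP. NAC047 stands above the rest at 171 and 131 reads, and 21 of the 26 peaks are lower under deficiency.

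The ATAF clade holds stress-responsive members. ATAF2 (AT5G08790) and NAC102 had a peak, whereas ATAF1 and NAC032 had none within 1500 bp. At ATAF2, known for roles in defence and in the turnover of brassinosteroids, the authors' deposited table gave 40.8 reads for Fe sufficiency and 20.1 for Fe deficiency (chromosome 5, 2860163 to 2862126). This was 2.03-fold less under deficiency, a log2 change of -1.02 (SE 0.40, p = 0.01) in the authors' deposited table. Its FDR of 0.182 was the lowest of the family in the authors' deposited table and did not pass 0.05. The ATAF2 peak overlapped the gene by 395 bp and had AT5G09210 and AT5G08780 within 1500 bp as well. NAC102, known for its role in germination under low oxygen, had 22.6 and 19.8 reads in the authors' deposited table (log2 change -0.18, SE 0.40, p = 0.569, FDR 0.685).

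Of the abscisic acid and jasmonate responsive trio NAC019, NAC055 and RD26 (NAC072), NAC055 and RD26 had a peak and NAC019 had none. NAC055 (AT3G15500, listed under the symbol NAC3) had a peak at each end of the gene. In the authors' deposited table these held 13.7 and 11.1 reads (log2 change -0.32, SE 0.45, p = 0.474) at the lower coordinate end and 10.9 and 11.2 reads (0.03, SE 0.51, p = 0.962) at the higher one, each pair given as sufficient and then deficient Fe. RD26 (AT4G27410), counted by its synonym, had a peak with more reads, 36.8 and 26.9 in the authors' deposited table (chromosome 4, 13708886 to 13711032). Per kb it held 14.8 reads, against 17.6 and 12.8 at the NAC055 peaks. Its log2 change in the authors' deposited table was -0.45 (SE 0.36, p = 0.208, FDR 0.416). That peak overlapped RD26 by 284 bp, but its midpoint lay closer to AT4G27415.

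In the senescence and NAP list, 4 of 11 genes had a peak, namely NAC047, NAP (NAC029), NAC056 and NAC087. Of all protein-coding genes 11.8% had one, and the difference was not tested. NAP (AT1G69490), a promoter of leaf senescence, had 45.9 reads with sufficient Fe and 53.1 for deficient Fe at its stronger peak in the authors' deposited table (chromosome 1, 26119634 to 26121424). Its log2 change in the authors' deposited table was 0.21 (SE 0.29, p = 0.476, FDR 0.622). Per kb this peak held 27.7 reads, which ranked second among the peaks near NAC genes after NAC047, but it overlapped AT1G69485 and lay 656 bp from NAP. A weaker peak overlapped NAP by 50 bp, with 8.63 and 6.19 reads in the authors' deposited table (log2 change -0.49, SE 0.65, p = 0.45).

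NAC087 (AT5G18270), known for cell death in the root cap, had the most negative change of the family. In the authors' deposited table its peak (chromosome 5, 6043404 to 6044332) held 18.1 reads with sufficient Fe and 6.68 under deficiency, 2.71-fold less. The log2 change in the authors' deposited table was -1.44 (SE 0.57, p = 0.0116), and the FDR of 0.184 did not pass 0.05. NAC056 (AT3G15510, listed under the symbol NAC2), a regulator of seed morphogenesis, had 16 and 11.96 reads in the authors' deposited table (log2 change -0.41, SE 0.54, p = 0.448). ORE1 (NAC092), NAC059, NAC046, NAC042, NAC016, NAC018 and NAC025 of the same list had no peak within 1500 bp.

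**Figure D3:**
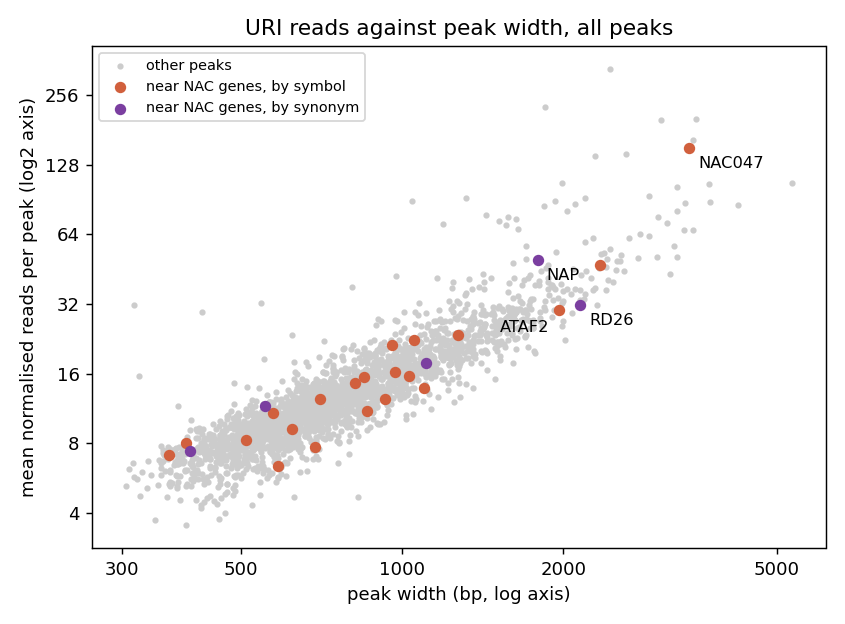
Mean normalised reads per peak (log2 axis) against peak width (bp, log axis) for all 2366 peaks, with peaks near NAC genes coloured. NAC047 lies at 3432 bp and 151 reads, and the other NAC peaks follow the band in which wider peaks hold more reads.

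Of 12 genes listed for secondary walls and vessels, 1 had a peak, NAC076 (VND2, AT4G36160), which promotes vessel differentiation. Its peak (chromosome 4, 17113766 to 17114352) was the weakest of the family, at 4.38 and 8.40 reads for sufficient and deficient Fe in the authors' deposited table. The log2 change of 0.93 in the authors' deposited table (SE 0.62, p = 0.131) was the most positive of the family. With so few reads the peak was outside the FDR adjustment, so it had no adjusted test. That peak also overlapped AT4G36170. The lists for the root cap (0 of 4, SMB, BRN1, BRN2 and FEZ), organ boundaries and lateral roots (0 of 4, the CUC genes and NAC1) and DNA damage (0 of 3, SOG1, NAC044 and NAC085) had no gene with a peak within 1500 bp. Over all protein-coding genes the share was 11.8%, and in lists this small a count of 0 lies near it. The counts also depend on how the lists were drawn. NAC087, with a known root cap role, was in the senescence list, and NAC083, a repressor of vessel formation, was in none.

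Of 12 NAC genes for proteins with a membrane anchor, 3 had a peak, where 11.8% of all protein-coding genes had one. That difference was not tested either. NAC053 (NTL4), known for reactive oxygen production in drought, shared a peak with NAC052, a partner of the histone demethylase JMJ14. In the authors' deposited table that peak (chromosome 3, 3270930 to 3271902) held 19.3 reads with sufficient Fe and 13.2 under deficiency (log2 change -0.55, SE 0.43, p = 0.202, FDR 0.412). It covered the 14 bp between both genes and part of each. TIP (NAC091), which binds a viral coat protein, had 11.96 and 11.3 reads in the authors' deposited table (log2 change -0.08, SE 0.49, p = 0.861). NTL8 (NAC040), known for salt responses in germination, had 18.0 and 17.4 reads in the authors' deposited table (-0.05, SE 0.42, p = 0.856), at a peak whose midpoint lay inside AT2G27310. The approximate 95% intervals of these changes ran from -1.05 to 0.89 at TIP and from -0.87 to 0.77 at NTL8.

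The other 11 genes with a peak were in none of the subgroup lists. Among them NAC084 was the only one of the 83 with 2 peaks that both had a positive change in the authors' deposited table, at 0.34 (19.8 reads with sufficient Fe and 25.1 under deficiency, SE 0.49, p = 0.486) and 0.16 (7.57 and 8.46 reads, SE 0.59, p = 0.841). The first NAC084 peak also overlapped EXO70C2, an exocyst subunit gene. NAC004 had a peak with 15.6 and 15.5 reads in the authors' deposited table (log2 change -0.01, p = 0.869) and shared a weaker one with NAC005 at 8.69 and 5.58 reads (-0.63, SE 0.63, p = 0.317). NAC048 had 18.6 and 12.5 reads in the authors' deposited table at its own peak (-0.58, SE 0.47, p = 0.22), and shared one with NAC049 at 11.2 and 5.35 reads (-1.07, SE 0.57, p = 0.0613). The peak shared with NAC049 was outside the FDR adjustment, so it had no adjusted test.

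NAC080 had 18.8 and 10.3 reads in the authors' deposited table (-0.87, SE 0.48, p = 0.0677, FDR 0.317), but its peak lay 1393 bp away and nearest to AT5G07670. NAC041 had 12.9 and 8.75 reads in the authors' deposited table (-0.56, SE 0.51, p = 0.27). NAC003 had 10.2 and 8.34 reads in the authors' deposited table (-0.29, SE 0.47, p = 0.54). NAC050, which like NAC052 is a partner of JMJ14, had 8.75 and 6.73 reads in the authors' deposited table (-0.38, SE 0.55, p = 0.493) at a peak nearest to AT3G10470. Within the 1500 bp window the longest gaps were 1421 bp at NTL8, 1393 bp at NAC080 and 1190 bp at NAC050. The next ones outside it were NAC010 at 1723 bp and, by synonym, XND1 at 1826 bp, with peaks of 9.99 and 12.9 mean reads in the authors' deposited table.

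The second question was whether URI signal at these genes differed between Fe conditions. None of the 21 peaks near the 83 NAC genes passed a deposited FDR of 0.05, and none of the 26 peaks with synonyms did. Of all 1311 adjusted peaks, 27 (2.06%) passed in the authors' deposited table, 1.98% as higher and 0.0763% as lower under deficiency, so a count of 0 over the 13 NAC peaks in the adjustment lies near that background. At an FDR of 0.1 the share was 3.05% in the authors' deposited table, and the family again had 0. Before adjustment, 3 of the 21 peaks had p under 0.05 in the authors' deposited table, at ATAF2, NAC087 and NAC083, and all 3 changes were negative. Of all 2366 peaks, 10.1% had a negative change with p under 0.05 and 3.55% a positive one in the authors' deposited table. The FDR was 1 for 8 of the 21 peaks (38.1%) and for 44.6% of all peaks, all with at most 11.5 mean reads in the authors' deposited table, so for these there was no adjusted test. The 8 include the peaks of NAC076, NAC041, NAC003 and NAC050 and those shared by NAC004 and NAC005 and by NAC048 and NAC049. The others are the weaker NAC084 peak and the NAC055 peak at the higher coordinate end. By synonym, the weaker NAP peak was outside the adjustment too.

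**Figure D4:**
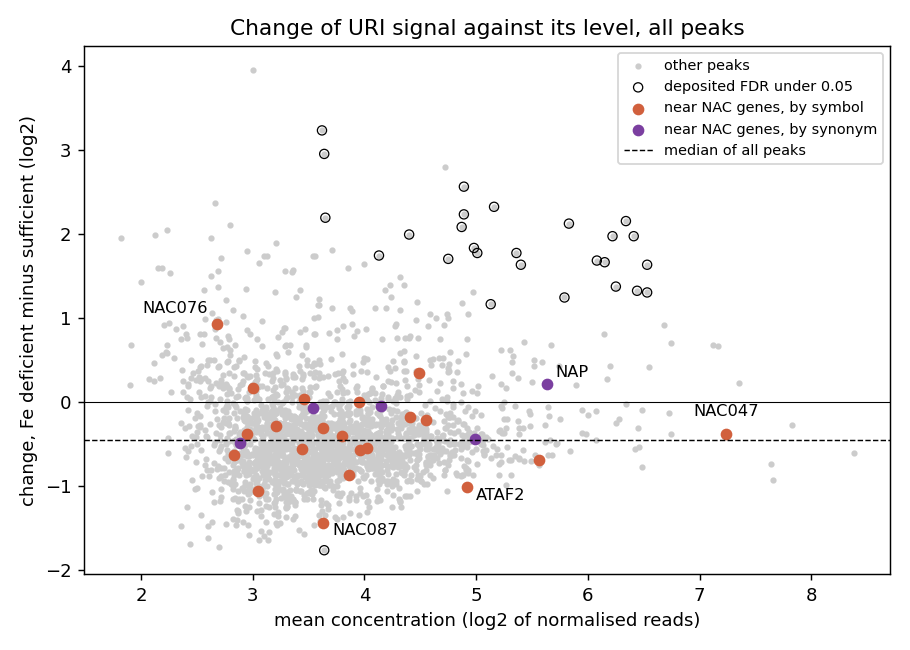
Log2 change (Fe deficient minus sufficient) against mean concentration (log2 of normalised reads) for all 2366 peaks; circled peaks have a deposited FDR under 0.05, the solid line is 0 and the dashed line the median of all peaks, -0.46. Peaks near NAC genes lie between -1.44 and 0.93 and none is circled.

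Most NAC peaks had a negative change, as most peaks of the table did. Changes of the 21 peaks had a median of -0.39 and ranged from -1.44 to 0.93, with 17 below 0 and 4 above. Over all peaks the median was -0.46 and 1889 of 2366 (79.8%) were below 0. Relative to that median peak, 9 of the 21 NAC peaks had lower values and 12 higher ones, where 49.8% of all peaks had lower values by construction, and the change of NAC047 turned from -0.39 to 0.07. Those of ATAF2, NAC087 and the stronger NAC083 peak were still negative, at -0.56, -0.98 and -0.23. Their recentred p-values by the normal approximation were 0.157, 0.0858 and 0.439, so none was still under 0.05. The recentred p was under 0.05 only at NAC076 (0.0240) and the stronger NAP peak (0.0230, recentred FDR 0.292), both with positive values. After recentring, 0 of the 13 NAC peaks in the adjustment had an FDR under 0.05, against 4.81% of all adjusted peaks as higher and 0% as lower. The highest recentred values of the family were 1.39 at NAC076, 0.80 and 0.62 at NAC084 and 0.67 at the stronger NAP peak. Of these, NAC076 and the weaker NAC084 peak (0.62) were outside the adjustment and had no recentred FDR. For comparison, the peak of the Fe transporter gene IRT1 had 29.7 and 133 reads with sufficient and deficient Fe in the authors' deposited table. Per kb its mean over both conditions was 39.9 reads, against 44.0 at NAC047. Of the other Fe genes compared, bHLH39 (70.1), FER1 (65.5), FER3 (57.1), PYE (54.7) and bHLH38 (46.1) held more per kb than NAC047. BTS (42.1) and BHLH100 (33.4) held less.

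In level, the median NAC peak was a little above the median of all peaks. The 21 peaks had a median of 13.9 mean reads and 17.6 reads per kb, against 12.2 and 16.6 over all peaks. Their median width was 861 bp against 734 bp. Of the 21 peaks, 3 were in the top 10% of the table by concentration, at NAC047, NAC083 and ATAF2. NAP and RD26 joined them when synonyms were counted. Per kb, the ATAF2 and RD26 peaks held 15.4 and 14.8 reads, below the median of 16.6 over all peaks. The stronger NAC083 and NAP peaks held 20.1 and 27.7 per kb, above that median, as did NAC047. The spread of reads per kb within the family, from 10.9 at NAC076 to 44.0 at NAC047, was narrower than that of reads per peak, from 6.41 to 151.

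By midpoint, most of these peaks lay outside genes, as most peaks of the table did. The midpoint of 3 of the 21 peaks (14.3%) was inside a protein-coding gene, against 19.4% of all peaks. An overlap of at least 1 bp with a NAC gene was found for 11 of the 21, and 61.1% of all peaks overlapped some protein-coding gene. The protein-coding gene nearest to the midpoint was a NAC gene for 19 of the 21. The gene table gives no strand, so peaks before a gene's start and after its end are not told apart here.

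**Figure D5:**
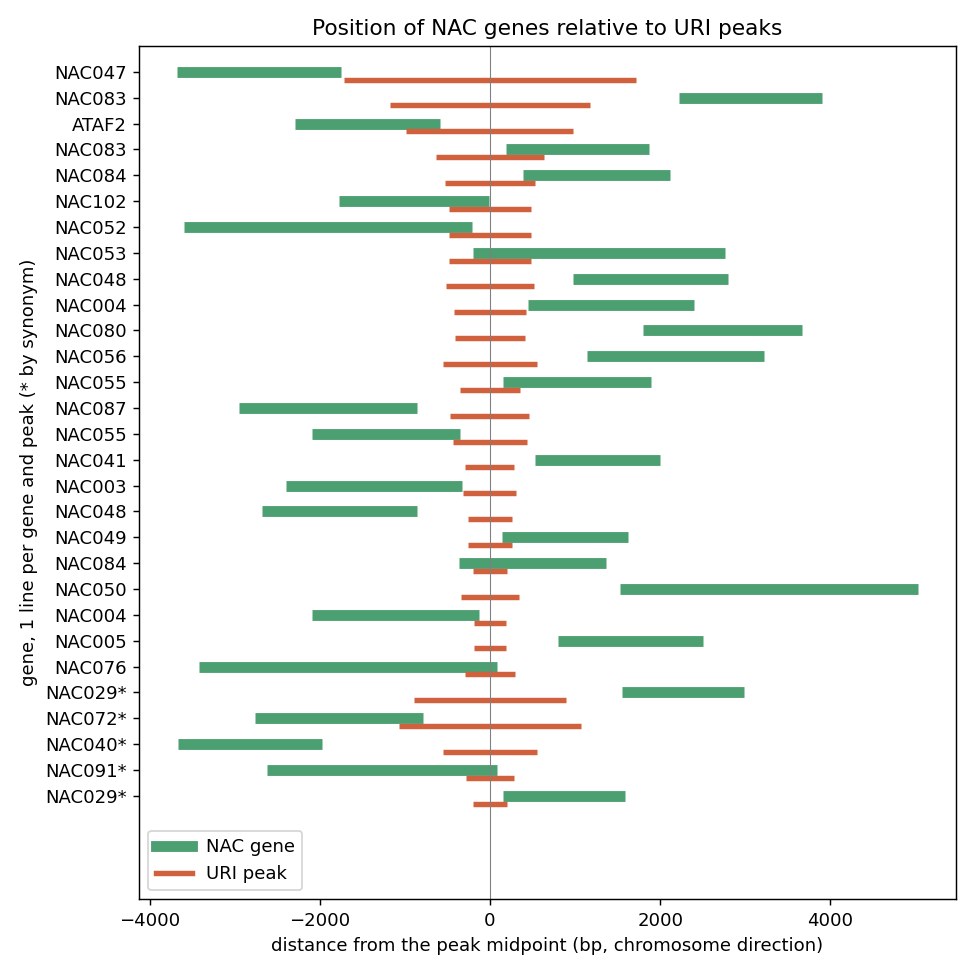
Position of each NAC gene (green) relative to the midpoint of its URI peak (orange), in bp along the chromosome direction, 1 line per gene and peak in order of concentration with genes by synonym below. The NAC047 peak spans 3432 bp beside the gene, and NAC083 has its stronger peak 1051 bp from the gene and a weaker one overlapping it.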

How the data were processed

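Per the submitters' processing notes, the tools were MACS2, DiffBind, Trimmomatic 0.33, Bowtie 1.2.2, Picard 2.4.1, SAMtools 1.3.1 and bedtools 2.26.0, and the genome TAIR10. Their settings, the scaling between libraries, the role of the IgG libraries and any pooling before peak calling: not given in the sources used here. In all, the authors deposited 1 table of 2366 peaks, whose concentrations and fold were read as log2 values. Its fold is sufficiency minus deficiency to within 0.01 and was reversed here. Its p-values and FDR are those the authors deposited, and the FDR was reproduced to within 0.489% by adjusting 1311 peaks by Benjamini-Hochberg; the rest, with at most 11.5 mean reads, have an FDR of 1.

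The table has no values per library, so no model was fitted. Implied errors and recentred p-values use a normal approximation centred on a change of 0, which the deposited test follows only roughly. For changes under 0.2 the median error of the 101 peaks closest in concentration was used. Width and concentration were correlated (Spearman rho 0.90 over peaks, a description). Reads per kb are given for some peaks and for the medians only. Reads of the other peaks are not corrected for width. Overlaps and recentring were tested on simulated data (Python 3.11.15, pandas 2.3.3, scipy 1.17.1). The recentring simulation drew its changes from the same normal approximation, so it cannot show how well the deposited values follow it. Whether peak starts count from 0 or 1 is unknown. The members and lists were chosen with earlier results of these data known. Every NAC gene with a peak is named, and some genes without one as members of a list or as lying just outside the window. Motif counts were planned, but need a sequence and were not run.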

Additional observations from a re-analysis of the deposited data

How the results depend on the processing

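Library-level alternatives could not be run on group means. No paired analysis was possible because the table holds 1 mean per Fe condition and no value per library, and leaving out a replicate was not possible for the same reason. The count of 0 peaks at an FDR under 0.05 near NAC genes was also 0 at 0.1 and 0.01, after adjustment over all peaks, after recentring, with windows of 1000 and 3000 bp and with synonyms. The number of NAC genes with a peak was 10 when the peak had to overlap the gene, in place of 19, because that leaves out genes with a peak beside them. It ranged from 13 to 25 under the other alternatives. The median change of -0.39 became 0.07 after recentring on the median peak, which moves every change up by 0.46 (log2), and ranged from -0.48 to -0.355 under the others. The same shift turned the sign of 11 of the 26 peaks, none of which was past the threshold: NAC047 (0.07), RD26 (0.01), NAC056 (0.05), the stronger NAC055 peak (0.14), the weaker NAC083 peak (0.24), NAC102 (0.28), NTL8 (0.41), TIP (0.38), the stronger NAC004 peak (0.45), NAC050 (0.08) and NAC003 (0.17). The median concentration of 3.8 ranged from 3.715 to 4.02 under alternatives chosen after the data were seen. Weak peaks limit the family, since 8 of 21 have no adjusted test.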

Other observations

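Of 11 pairs of NAC genes that lie next to each other, both had a peak in 6 (NAC003 and NAC004, NAC004 and NAC005, NAC048 and NAC049, NAC050 and NAC052, NAC052 and NAC053, NAC055 and NAC056), and 3 of these pairs shared one. NAC004 and NAC052 each stand in 2 of the 6 pairs. Of all 27439 neighbouring protein-coding pairs, both genes had a peak within 1500 bp in 1669 (6.08%), and the difference was not tested. In 4 pairs neither had a peak, among them NAC018 and NAC019 on chromosome 1, the homologues of NAC056 and NAC055. In the remaining pair NAC047 had a peak and NAC046 had none within 1500 bp, the nearest lying 2657 bp away with 31.3 mean reads and a log2 change of -0.87 (p = 0.0226, FDR 0.237) in the authors' deposited table.

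NAC047 lies beside APY1 and NAC087 beside APY2, both apyrase genes. Each NAC gene had its peak in the space towards the apyrase gene. These peaks held 151 and 12.4 mean reads in the authors' deposited table, and the NAC087 peak did not reach within 1500 bp of APY2.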
